A study of Mus musculus with 12 samples.

Results

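Metallothioneins and the genes that set the zinc content of a cell were examined in erythroid cells of the mouse fetal liver, with and without the transcription factor IKAROS. The 8 genes were the metallothioneins Mt1 and Mt2, the transcription factor gene Mtf1, and transporters. The transporters were the zinc exporter Slc30a1, Slc30a10, known for the export of manganese, and the zinc importers Slc39a4, Slc39a8 and Slc39a10. All 8 genes were taken by gene symbol from the 38250 genes in the table of normalized counts, and each symbol matched 1 row. Mt2 was picked because its normalized count was lower in IkNull than in IkWT cells, so its genotype difference is given below as a description with no test. The other 7 were listed for what they are known to do, with earlier results of these data known.

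The study asked what IKAROS does at genes that respond to NOTCH signaling. E14.5 fetal livers from CD1 mice were placed for 48 h on stromal cells with 2 U/mL of erythropoietin, and poly(A) RNA was sequenced. The 12 libraries were 3 each of IkNull/OP9-DL1, IkNull/OP9, IkWT/OP9-DL1 and IkWT/OP9. IkNull embryos were homozygous for a germline deletion of the last translated exon of Ikzf1, the IKAROS gene, in every tissue, and IkWT embryos were their wild type littermates. OP9 is a bone marrow stromal cell line without the added ligand, and OP9-DL1 is the same line made to express the NOTCH ligand Delta-like 1. According to the study's methods Ter119+ cells, which are erythroid, were then sorted, whereas the sample labels describe passage through a filter. The replicates are numbered 1, 2 and 3 in IkNull and 1, 3 and 4 in IkWT, and each number has a library on both stromas. The 2 libraries of 1 genotype and number are called 1 culture below. This is a reading from how they correlate, as no label says what a number marks.

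Metallothioneins are small, cysteine-rich proteins that hold zinc and copper. Zinc released in the cell activates MTF1, a zinc finger factor that binds metal response elements in the promoters of metallothionein genes and of Slc30a1. Free zinc can therefore raise the message of these genes. Glucocorticoids also raise metallothionein messages, and free zinc was not measured here. Most members of the Slc30 family move zinc out of the cytosol, and members of the Slc39 family move it in. Developing erythroid cells need zinc for carbonic anhydrase and for the zinc fingers of their transcription factors.

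The libraries held 19889576 to 31624477 reads in genes. Ikzf1 itself had 1720 to 2720 normalized counts in the 6 IkNull libraries and 2420 to 2720 in the 6 IkWT libraries, and the count over the whole gene does not test the loss of 1 exon. The summed level of 11 erythroid markers was 3953000 to 7096000 normalized counts in IkNull and 2708000 to 5157000 in IkWT libraries. Most of that sum was globin, with Hbb-b1 averaging 3430000 and Hba-a1 932300 in IkNull/OP9. Gene by gene, 6 of the 11 were below 0 in IkNull on either stroma, with medians of -0.23 on OP9 and -0.19 on OP9-DL1. Of the 11, 0 were called higher and 1 was called lower in IkNull on either stroma. Markers of other cells were also present, and some of them differed between the genotypes. The summed level of 8 megakaryocyte markers was 3332 to 9608 in IkNull and 902.7 to 1782 in IkWT libraries, with 6 of 8 called higher on OP9-DL1 and 5 of 8 on OP9. The 10 macrophage markers summed to 7074 to 24480 in IkNull and 1893 to 11090 in IkWT libraries, with 4 of 9 tested called higher on OP9-DL1 and 2 of 9 on OP9. The 8 neutrophil markers summed to 21860 to 83310 in IkNull and 6136 to 48620 in IkWT libraries, with 0 of 8 called. The 8 mast cell markers summed to 524.3 to 1338 in IkNull and 75.3 to 858.7 in IkWT libraries. Of the mast cell markers, 1 of 6 tested was called higher on each stroma. The neutrophil and mast cell sums of the genotypes overlapped on each stroma. Over all genes, 9.41% were called higher on OP9-DL1 and 6.69% on OP9. The part of these cells in the results below was not tested, and in bulk RNA fewer cells of a type and less RNA per cell cannot be told apart.

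Mt2 lies on chromosome 8 (GRCm38, chr8:94172664-94173568, plus strand), and Mt1 starts 5513 bases beyond its end (chr8:94179082-94180327, plus strand). The 250 bases before the RefSeq start of each (GRCm38.p6) are shown with those of Slc30a1, because these are the members best known as targets of MTF1. Capitals mark the core of the metal response element, searched as TGCACNC or TGCGCNC on both strands.
Mt2, chr8:94172368-94172617, plus strand: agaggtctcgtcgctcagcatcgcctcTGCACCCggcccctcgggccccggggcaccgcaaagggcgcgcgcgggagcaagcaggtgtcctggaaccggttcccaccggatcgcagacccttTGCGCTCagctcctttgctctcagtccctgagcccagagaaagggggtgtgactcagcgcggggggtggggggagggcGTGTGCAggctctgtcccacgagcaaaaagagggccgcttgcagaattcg
Mt1, chr8:94178839-94179088, plus strand: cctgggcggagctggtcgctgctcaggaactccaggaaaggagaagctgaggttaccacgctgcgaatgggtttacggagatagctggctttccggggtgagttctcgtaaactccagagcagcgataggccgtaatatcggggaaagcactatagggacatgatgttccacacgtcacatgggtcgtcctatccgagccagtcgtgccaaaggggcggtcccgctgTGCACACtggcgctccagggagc
Slc30a1, chr1:191906531-191906780, plus strand: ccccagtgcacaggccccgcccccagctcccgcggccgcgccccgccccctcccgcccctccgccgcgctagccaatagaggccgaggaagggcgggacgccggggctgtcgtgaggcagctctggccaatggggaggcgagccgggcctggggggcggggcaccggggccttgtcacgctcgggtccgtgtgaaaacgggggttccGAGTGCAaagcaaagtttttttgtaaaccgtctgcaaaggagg
The Mt2 window held 3 matches, beginning 223, 128 and 50 bases before the start, the Mt1 window 1 match, and the Slc30a1 window 1 match. Of 32851 such windows over the genome, 21.4% held at least 1 match and 1.26% at least 3. With the 50 bases after the start included, the matches were 4 for Mt2, 3 for Mt1 and 2 for Slc30a1, and 25.7% of all windows of 300 bases held at least 1. Other annotated starts of Mt1 lie 122 and 152 bases beyond the window shown, and the GENCODE starts of Mt2 lie 46 and 242 bases beyond its window. The distances and the numbers of matches therefore hold for the RefSeq start alone. The IKAROS core TGGGAA, also searched on both strands, occurred 1 time in the 250 bases of Mt2 and not in those of Mt1 or Slc30a1, against 21.6% of all windows. Among the other members, Slc30a10 held 3 matches to the metal response element core, of which 2 overlap, 1 of 2 windows of Slc39a8 held 1 match, and the windows of Mtf1 and Slc39a10 held none. Windows were found for 7 of the 8 genes. These matches describe letters and not bound sites.

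Mt2 had 6907, 2736 and 6273 normalized counts in IkNull/OP9 replicates 1, 2 and 3, against 42299, 35545 and 36227 in IkWT/OP9 replicates 1, 3 and 4. On OP9-DL1 it had 7026, 3122 and 6441 in IkNull libraries, against 44300, 35407 and 40790 in IkWT libraries. All 6 IkNull libraries lay below all 6 IkWT libraries, and replicate 2 was the lowest of the IkNull libraries on both stromas. The means were 5305 ± 2247 in IkNull/OP9 and 38023 ± 3718 in IkWT/OP9 (SD, n = 3 each), 7.17-fold lower in IkNull. They were 5530 ± 2106 in IkNull/OP9-DL1 and 40165 ± 4479 in IkWT/OP9-DL1 (SD, n = 3 each), 7.26-fold lower in IkNull. On the scale of log2(normalized count + 1) the differences were -2.95 ± 0.37 on OP9 and -2.94 ± 0.37 on OP9-DL1 (SE), the 25th and 26th lowest of the 13769 genes tested. Without both libraries of IkNull replicate 2 they were -2.53 and -2.57.

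Mt1, whose protein differs from that of Mt2 in sequence but binds metal in the same way, had the same pattern. It had 6029, 2902 and 4731 normalized counts in the IkNull/OP9 libraries, against 35314, 30484 and 32732 in the IkWT/OP9 libraries. On OP9-DL1 it had 5313, 3296 and 4354 in IkNull libraries, against 35322, 27239 and 33774 in IkWT libraries. The genotypes did not overlap, and replicate 2 was again the lowest IkNull library. Mt1 fell by 2.91 ± 0.27 on the log2 scale on OP9 (4554 ± 1571 in IkNull/OP9 and 32844 ± 2417 in IkWT/OP9, SD, n = 3 each, adjusted p = 9.88e-05, limma with Benjamini-Hochberg adjustment over all genes). It also fell by 2.91 ± 0.27 on OP9-DL1 (4321 ± 1009 in IkNull/OP9-DL1 and 32112 ± 4291 in IkWT/OP9-DL1, SD, n = 3 each, limma adjusted p = 8.21e-05). Mt1 was called lower on both stromas under each of the 30 other settings, where its difference lay between -3.15 and -2.62 for OP9 and between -3.21 and -2.65 for OP9-DL1. As a neighbour of Mt2 that varies with it, Mt1 is not independent of the choice of Mt2.

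**Figure D1:**
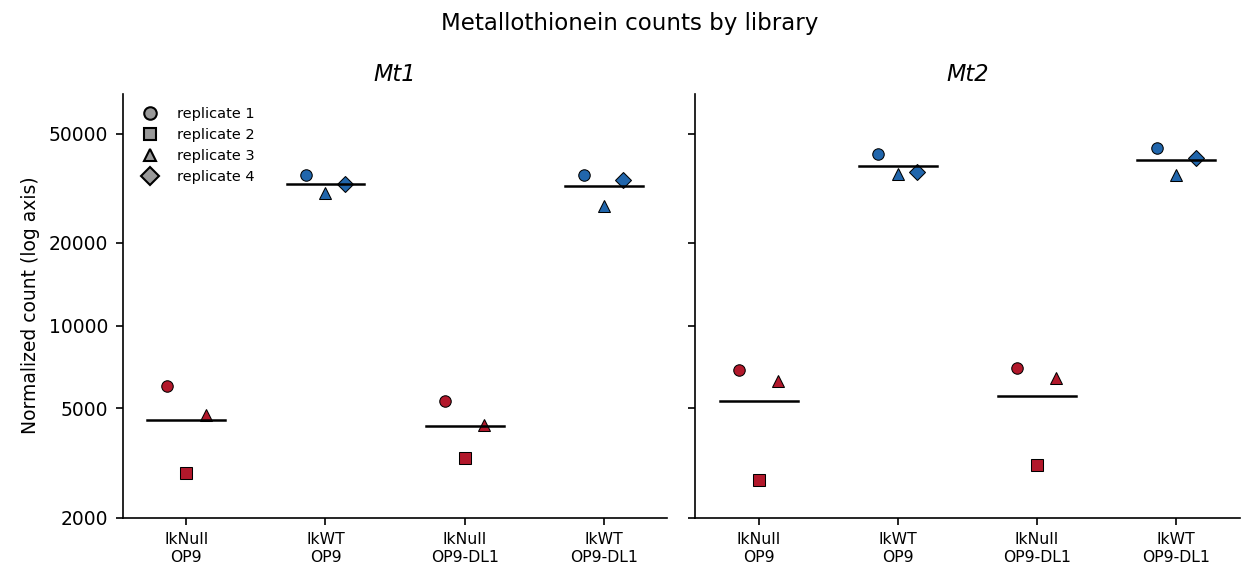
Normalized counts of Mt1 and Mt2 in each library (log axis), with IkNull in red, IkWT in blue, a marker shape for each replicate number and a bar at the group mean of 3 libraries. The highest IkNull value is 7026 normalized counts (Mt2) and the lowest IkWT value 27239 (Mt1).

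Mt1 and Mt2 together made up 0.021 to 0.0464% of all normalized counts in IkNull/OP9 and 0.261 to 0.361% in IkWT/OP9 libraries. On OP9-DL1 they made up 0.0214 to 0.0466% in IkNull and 0.28 to 0.351% in IkWT libraries. By mean normalized count Mt2 stood at rank 681 from the highest in IkNull/OP9-DL1 and 55 in IkWT/OP9-DL1, and at rank 683 in IkNull/OP9 and 64 in IkWT/OP9. Mt1 stood at rank 855 in IkNull/OP9-DL1 and 76 in IkWT/OP9-DL1, and at rank 785 in IkNull/OP9 and 79 in IkWT/OP9. Both genes ranked lower among all messages in IkNull cells on either stroma. The ratio of Mt1 to Mt2 counts was 0.676 to 1.06 in IkNull and 0.769 to 0.904 in IkWT libraries, with 1.06 in both libraries of IkNull replicate 2. The remaining metallothioneins, Mt3, which is best known in the brain, and Mt4, of stratified epithelia, averaged less than 1 normalized count in every group and were not tested.

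The Mt1 and Mt2 transcripts share no run of 50 bases. Mt2 overlaps the antisense gene Gm45774 over 432 exonic bases, which was not analysed here. The library kit is not described as keeping strand, so reads of that gene cannot be told apart from those of Mt2.

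Hepatocytes of the fetal liver are known to make metallothioneins. The 10 hepatocyte markers, among them Alb (albumin) and Afp (alpha-fetoprotein), summed to 3238, 5001 and 8813 normalized counts (lowest, median and highest) in IkNull/OP9-DL1 and 3453, 4165 and 6457 in IkWT/OP9-DL1, where Mt2 was 7.26-fold lower in IkNull. They summed to 3441, 3560 and 7879 in IkNull/OP9 and 6042, 7848 and 9865 in IkWT/OP9. None of the 10 was at 0 in a group, and 0 of 10 were called in either direction on either stroma. On OP9 all 10 had a difference below 0 in IkNull, as Mt1 and Mt2 did, with a median of -0.75, -1.01 for Alb and -1.61 for Serpina1a, an inhibitor of proteases. On OP9-DL1 4 of 10 were below 0, and the median was 0.17. The part of hepatocytes in the differences of Mt1 and Mt2 was not tested.

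The gene for MTF1, the factor that reads cellular zinc (chr4:124802104-124849800), was lower in IkNull cells on OP9-DL1. Mtf1 had 1021, 804.7 and 920.6 normalized counts in the IkNull/OP9-DL1 libraries, against 2043, 1504 and 1518 in the IkWT/OP9-DL1 libraries. It had 950.1, 798.4 and 1010 in the IkNull/OP9 libraries, against 1916, 1493 and 1355 in the IkWT/OP9 libraries. The genotypes did not overlap on either stroma, replicate 2 being the lowest IkNull library and replicate 1 the highest IkWT library in both. Mtf1 fell by 0.87 ± 0.19 on the log2 scale on OP9-DL1 (limma adjusted p = 0.0111). On OP9 the difference was -0.78 ± 0.19 with an adjusted p of 0.0237 by limma, and it was not called because its size was under the 0.8 that a call also required. Both results turned on 1 library. The call on OP9-DL1 was lost without IkNull/OP9-DL1 replicate 2 (-0.78) or without IkWT/OP9-DL1 replicate 1 (-0.73), and on OP9 a call was gained without IkNull/OP9 replicate 1 (-0.81) or 3 (-0.85) and without IkWT/OP9 replicate 3 (-0.82) or 4 (-0.89). The gene overlaps the antisense gene 1110065P20Rik, which has its own row.

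Slc39a8, an importer of zinc, manganese and cadmium at the cell surface (chr3:135825279-135888572), had the highest level per length of the Slc39 family in all 4 groups. It had 1459, 990.3 and 1587 normalized counts in the IkNull/OP9-DL1 libraries, against 2432, 2611 and 2636 in the IkWT/OP9-DL1 libraries. It had 1656, 1411 and 1709 in the IkNull/OP9 libraries, against 2242, 2261 and 2435 in the IkWT/OP9 libraries. The genotypes did not overlap on either stroma, and IkNull/OP9-DL1 replicate 2 was the lowest of the 12 libraries. Slc39a8 fell by 0.96 ± 0.18 on the log2 scale on OP9-DL1 (1345 ± 314 in IkNull/OP9-DL1 and 2560 ± 111 in IkWT/OP9-DL1, SD, n = 3 each, limma adjusted p = 0.00562). On OP9 the difference was -0.54 ± 0.18 (1592 ± 159 in IkNull/OP9 and 2313 ± 107 in IkWT/OP9, SD, n = 3 each) and did not pass the test (limma adjusted p = 0.0742). The call on OP9-DL1 was lost without IkNull/OP9-DL1 replicate 2, where the difference was -0.75, and without both libraries of IkWT replicate 4 (-0.93, limma adjusted p = 0.0511).

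Neither exporter was called in either direction in the test over all 12 libraries. Slc30a1, the exporter of the plasma membrane and itself a target of MTF1 (chr1:191906767-191913247), had 3828, 3402 and 3390 normalized counts in the IkNull/OP9 libraries, against 3646, 2495 and 3151 in the IkWT/OP9 libraries. On OP9-DL1 it had 3994, 4123 and 2971 in IkNull libraries, against 3351, 2261 and 2861 in IkWT libraries. The genotypes overlapped on both stromas. The differences were 0.21 ± 0.20 on OP9 (limma adjusted p = 0.525) and 0.39 ± 0.20 on OP9-DL1 (limma adjusted p = 0.197). Slc30a1 overlaps the antisense gene 1700034H15Rik, which has its own row.

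Slc30a10, known for the export of manganese (chr1:185454848-185468762), had 3959, 3021 and 2717 normalized counts in the IkNull/OP9 libraries, against 2562, 1773 and 1790 in the IkWT/OP9 libraries. On OP9-DL1 it had 4929, 3288 and 3036 in IkNull libraries, against 2811, 2047 and 2023 in IkWT libraries. The lowest IkNull library exceeded the highest IkWT library on both stromas, and replicate 1 was the highest of each group. The differences, 0.67 ± 0.24 on OP9 (limma adjusted p = 0.0977) and 0.69 ± 0.24 on OP9-DL1 (limma adjusted p = 0.0687), did not pass the test. Without both libraries of IkWT replicate 1 Slc30a10 was called higher on OP9-DL1 (0.85, limma adjusted p = 0.0492). The gene overlaps the antisense gene Gm2061 over 533 exonic bases, which was not analysed here.

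Slc39a10, an importer of the plasma membrane (chr1:46807544-46892852, minus strand), had 118.6, 222.0 and 118.6 normalized counts in the IkNull/OP9 libraries, against 118.9, 137.5 and 115.2 in the IkWT/OP9 libraries. On OP9-DL1 it had 96.0, 237.0 and 117.8 in IkNull libraries, against 122.8, 109.3 and 97.1 in IkWT libraries. Replicate 2, the IkNull culture with the fewest Mt1 and Mt2 counts, had the most Slc39a10 counts on both stromas, and the other libraries of the 2 genotypes overlapped. The differences were 0.24 ± 0.34 on OP9 and 0.35 ± 0.34 on OP9-DL1 (limma adjusted p = 0.67 and 0.498), and without both libraries of IkNull replicate 2 they were -0.06 and -0.04.

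Slc39a4, the importer through which the gut takes up dietary zinc (chr15:76612383-76617384, minus strand), had the fewest counts of the 8 genes. It had 22.2, 20.2 and 41.2 normalized counts in the IkNull/OP9 libraries, against 33.6, 17.3 and 19.04 in the IkWT/OP9 libraries. On OP9-DL1 it had 16.9, 55.9 and 39.3 in IkNull libraries, against 19.6, 26.0 and 8.2 in IkWT libraries. The genotypes overlapped on both stromas, and the differences of 0.24 ± 0.53 on OP9 and 1.00 ± 0.53 on OP9-DL1 did not pass the test (limma adjusted p = 0.797 and 0.203).

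**Figure D2:**
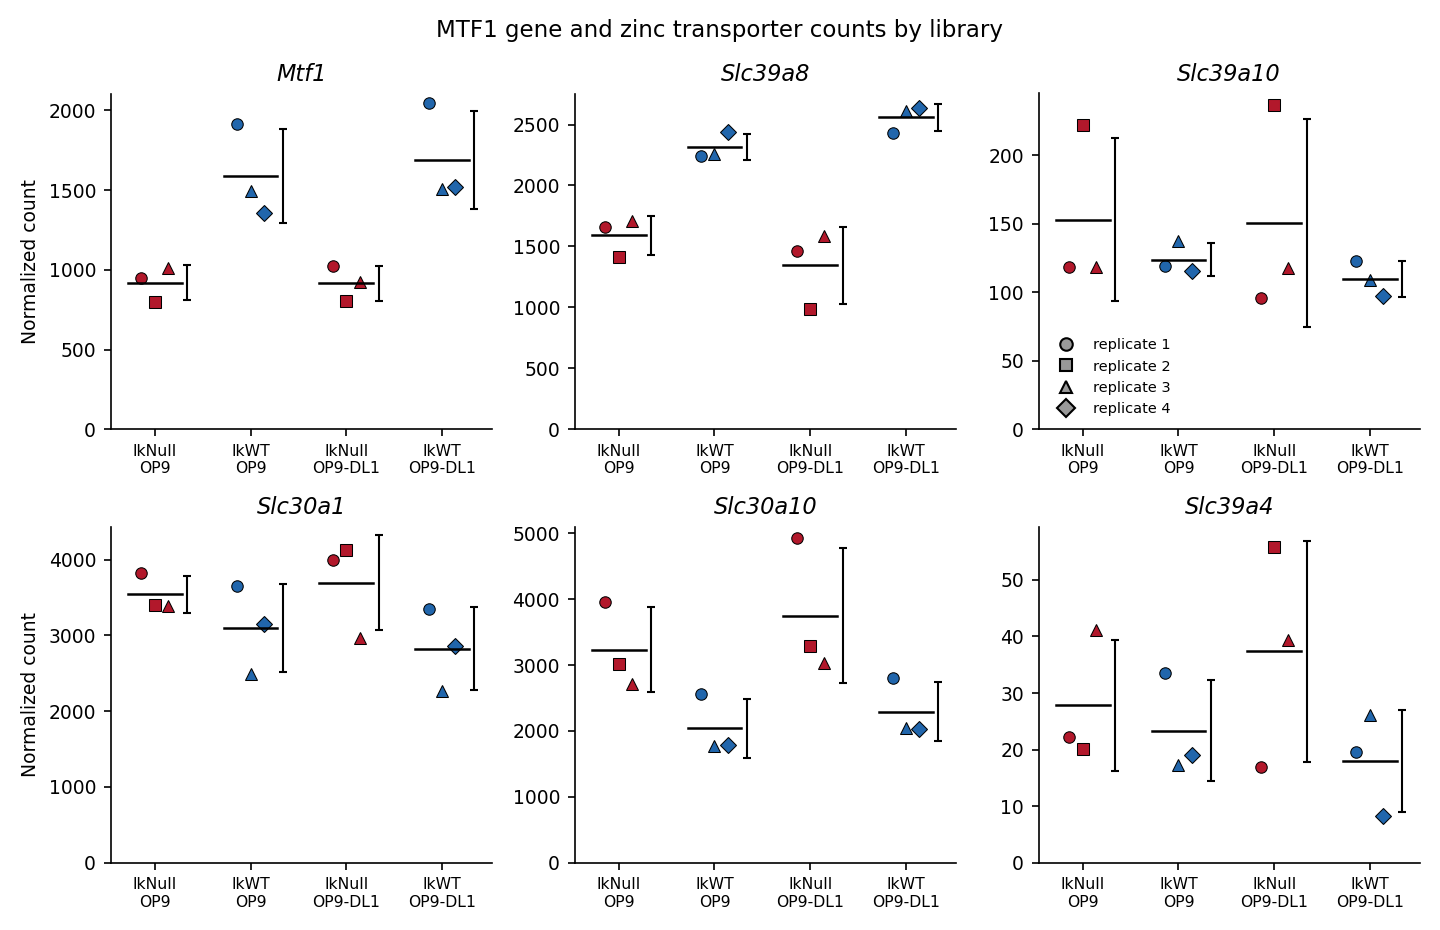
Normalized counts of Mtf1 and the 5 Slc30 and Slc39 members in each library, on axes that start at 0. IkNull is in red and IkWT in blue, with a marker shape for each replicate number. A bar marks the group mean, with the SD of 3 libraries beside it. The genotypes do not overlap for Mtf1, Slc39a8 and Slc30a10, and they overlap for Slc30a1, Slc39a10 and Slc39a4.

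Of the 7 genes other than Mt2, 1 was called lower and 0 were called higher in IkNull on OP9, where 2.83% of the 13769 genes tested were called lower and 6.69% higher. On OP9-DL1, 3 of the 7 were called lower and 0 higher, where 4.65% of all genes were called lower and 9.41% higher. The gene called on OP9 was Mt1, and those called on OP9-DL1 were Mt1, Mtf1 and Slc39a8. Mt1 varies with Mt2, so its part in these counts is not independent of the choice of Mt2. Without both libraries of IkNull replicate 2 the count on OP9-DL1 was 1, Mt1. The counts over all genes also turned on single libraries. On OP9, where 389 genes were lower and 921 higher, they were 140 lower and 411 higher without IkNull/OP9 replicate 2, 237 and 592 without IkNull/OP9 replicate 3, 165 and 580 without IkWT/OP9 replicate 1, and 195 and 551 without IkWT/OP9 replicate 4. On OP9-DL1, where 640 were lower and 1295 higher, they were 1163 lower and 1938 higher without IkNull/OP9-DL1 replicate 1, 227 and 537 without replicate 2, and 466 and 835 without replicate 3. They were 306 lower and 786 higher without IkWT/OP9-DL1 replicate 1, and 342 and 715 without replicate 4. On each stroma 3 of the 7 (Mt1, Mtf1 and Slc39a8) had all IkNull libraries below all IkWT libraries, as did 16.7% of all genes on OP9 and 16.9% on OP9-DL1. On each stroma 1 of the 7 (Slc30a10) had all IkNull libraries above all IkWT libraries, as did 17.1% of all genes on OP9 and 17.1% on OP9-DL1. The 2 comparisons use different libraries, but those of 1 genotype and replicate number correlated and were read as 1 culture, which no label states. When the libraries were scaled to the same total in place of the authors' size factors, the median difference of all genes shifted to -0.22 on OP9 and -0.27 on OP9-DL1. Under that scaling the difference of Mt1 was -3.13 on OP9 and -3.21 on OP9-DL1, and that of Slc30a1 on OP9 was -0.01, below 0.

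**Figure D3:**
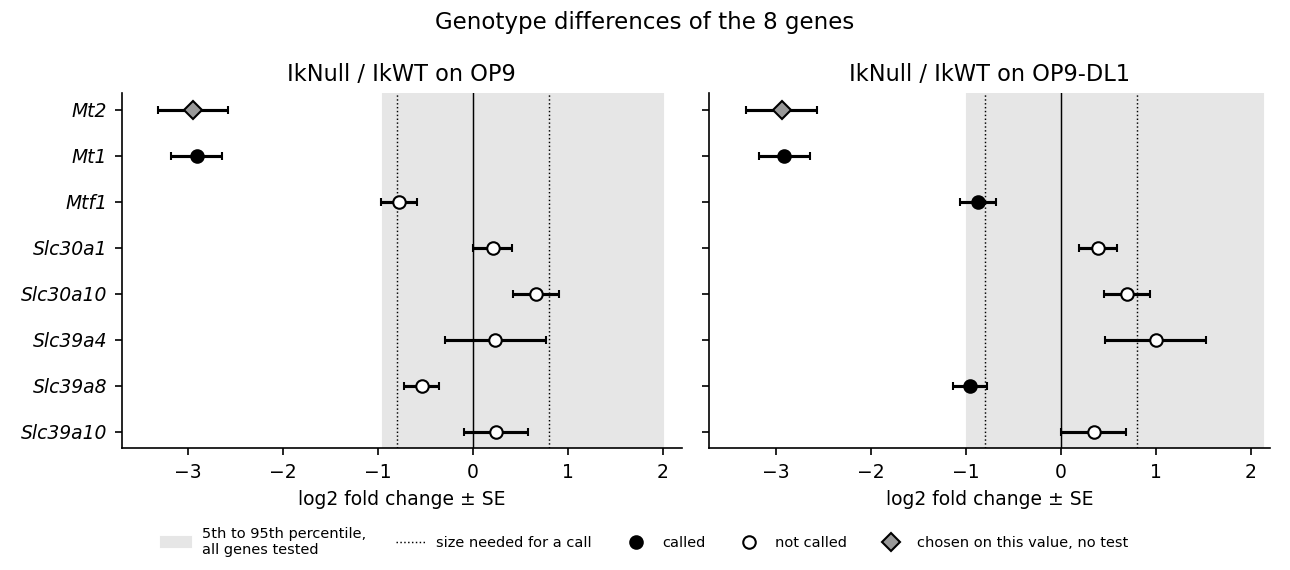
Difference between IkNull and IkWT in log2(normalized count + 1) with its SE for each of the 8 genes, on OP9 (left) and OP9-DL1 (right), with filled circles for called genes, a grey diamond for Mt2, which was chosen on this value, and grey bands from the 5th to the 95th percentile of all genes tested. Mt1 and Mt2 lie near -2.9 on both stromas, far from the other 6 genes.

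Levels of different genes can be set side by side only per length, and the length used was that of the longest principal transcript in GENCODE. In IkWT/OP9 cells Mt2 averaged 74410 and Mt1 59824 normalized counts per kilobase, and the ranges of their libraries did not overlap. They were followed by Slc39a8 at 655, Slc30a1 at 591 and Slc30a10 at 350, of which the libraries of Slc39a8 and Slc30a1 overlapped. Mtf1 averaged 208, Slc39a10 22.5 and Slc39a4 8.48 per kilobase. In IkNull/OP9 cells Mt2 averaged 10382 and Mt1 8296 normalized counts per kilobase, with overlapping ranges. There the next genes were Slc30a1 at 675, Slc30a10 at 554 and Slc39a8 at 451, each overlapping its neighbour in that order, and then Mtf1 at 120, Slc39a10 at 27.8 and Slc39a4 at 10.1. By mean, Slc39a8 thus stood above Slc30a1 and Slc30a10 in IkWT/OP9 and below both in IkNull/OP9 cells. That order holds only for the length used, which was 3533 bases for Slc39a8, whereas all its annotated exons cover 7664 bases. The Mt1 level per length depends on which of its annotated transcripts was made.

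The question whether NOTCH ligand on the stroma changed these genes was addressed within each genotype. No member was called between OP9-DL1 and OP9, in 8 tested in IkNull and 8 in IkWT cells. Of all genes, 0.0145% were called between the stromas in IkNull and 0.00726% in IkWT cells, and with the culture as a block 0.734% and 1.47%. With that block, 0 of the 8 members were called in either genotype. Mt2 averaged 5530 ± 2106 in IkNull/OP9-DL1 and 5305 ± 2247 in IkNull/OP9 libraries (SD, n = 3 each). It averaged 40165 ± 4479 in IkWT/OP9-DL1 and 38023 ± 3718 in IkWT/OP9 libraries (SD, n = 3 each). Within cultures, Mt2 differed between OP9-DL1 and OP9 by 0.02, 0.19 and 0.04 on the log2 scale in IkNull replicates 1, 2 and 3 and by 0.07, -0.01 and 0.17 in IkWT replicates 1, 3 and 4. Mt1 differed by -0.18, 0.18 and -0.12 in IkNull and by 0.00, -0.16 and 0.05 in IkWT. These differences are small beside the genotype difference of both genes.

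Slc30a10 was higher on OP9-DL1 than on OP9 in all 6 cultures, by 0.32, 0.12 and 0.16 in IkNull replicates 1, 2 and 3 and by 0.13, 0.21 and 0.18 in IkWT replicates 1, 3 and 4. The share of all genes with the same sign in all 6 cultures was not counted. With the culture as a block the Slc30a10 differences were 0.20 ± 0.06 in IkNull and 0.17 ± 0.06 in IkWT. They did not pass the test over all genes (limma adjusted p = 0.131 and 0.176). Markers of other cells also differed between the stromas, with 0 called. The 8 neutrophil markers were all lower on OP9-DL1 in both genotypes (median -0.77 in IkNull and -0.71 in IkWT), and the 10 hepatocyte markers were all lower in IkWT (median -0.87) and 3 of 10 in IkNull (median 0.05). The 8 stromal markers tested had medians of 0.79 in IkNull and 0.61 in IkWT, with Pdgfrb, a receptor of mesenchymal cells, at 2.30 and 2.33. The part of these cells in the stroma differences was not tested. Slc39a8 was lower on OP9-DL1 in the 3 IkNull cultures (-0.18, -0.51 and -0.11) and higher in the 3 IkWT cultures (0.12, 0.21 and 0.11). How many of all genes show such a split was not counted. Slc30a1 was lower on OP9-DL1 in the 3 IkWT cultures (-0.12, -0.14 and -0.14) and mixed in IkNull (0.06, 0.28 and -0.19). None of the 8 members passed the test of the interaction of genotype and stroma, in which 0% of the 13769 genes were called by limma, with 59 at an unadjusted p under 0.05 and 0 called by edgeR or DESeq2 on the recovered reads.

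**Figure D4:**
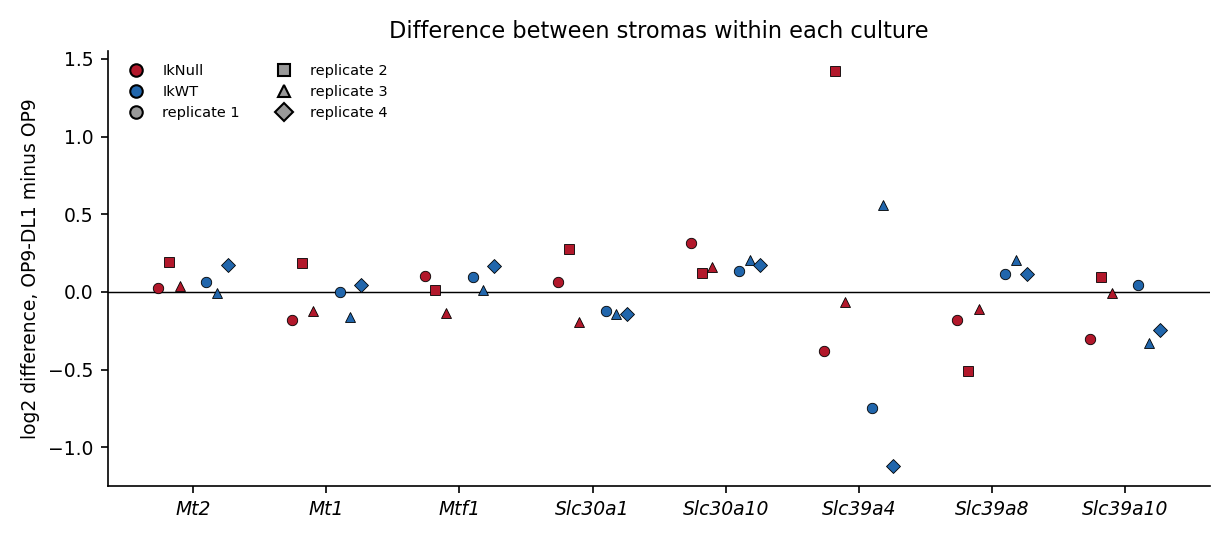
Difference in log2(normalized count + 1) between the OP9-DL1 and the OP9 library of each culture, for the 8 genes, with IkNull in red, IkWT in blue and a marker shape for each replicate number. Points lie within 0.51 of 0 except for Slc39a4, the gene with the fewest counts. Slc39a8 has all IkNull cultures below 0 and all IkWT cultures above it, a split not counted over all genes.

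Across the 12 libraries the log2 values of Mt1 and Mt2 correlated with r = 0.993 (Spearman rho = 0.986), and r = 0.944 (rho = 0.93) after removal of the 4 group means. The points share library, depth and culture, and the first value also holds the genotype split. Among the 9961 genes that averaged 50 or more normalized counts, Mt1 was the gene whose levels were most like Mt2. It was followed by Recql4, a DNA helicase (r = 0.992), Mid1ip1, which regulates fatty acid synthesis (r = 0.991), Gen1, a Holliday junction resolvase (r = 0.988), and Wars, the tryptophanyl-tRNA synthetase (r = 0.987). All 4 had lower means in IkNull/OP9 than in IkWT/OP9, such as 264 against 794 normalized counts for Recql4. The genes most like Mt1 after Mt2 were the amino acid transporter Slc6a20a (r = 0.988), Nanos1, an RNA-binding protein gene (r = 0.987), Mid1ip1 (r = 0.986) and Pik3r1, a regulatory subunit of phosphoinositide 3-kinase (r = 0.985). After removal of the group means, Mapkapk5, a protein kinase (r = 0.978), and Eprs, the glutamyl-prolyl-tRNA synthetase (r = 0.971), were most like Mt2, ahead of Tra2b, Ubtf and Scyl3 (r = 0.965, 0.964 and 0.962). Zfp653, Ccne2, Fam96b, Tigd3 and 2310011J03Rik were then most like Mt1 (r = 0.973, 0.97, 0.969, 0.967 and 0.966).

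The rest of both transporter families was read from the same fit. Of the 10 Slc30 genes 7 were tested, and 1 was called in IkNull on OP9-DL1, as higher, with 0 called on OP9, where 9.41% of all genes on OP9-DL1 and 6.69% on OP9 were called higher. The called gene was Slc30a7, a carrier into the Golgi, at 0.86 ± 0.25 (239 in IkNull/OP9-DL1 and 133 normalized counts in IkWT/OP9-DL1, limma adjusted p = 0.0387). The call of Slc30a7 was lost in 16 of 30 other settings, 7 of which left out 1 library, the differences without 1 library being 0.65 to 1.03. The median difference over the 7 genes was 0.29 on OP9 and 0.39 on OP9-DL1, against 0.00 and 0.03 over all genes. Slc30a9 averaged 1122 normalized counts per kilobase in IkNull/OP9 and 870 in IkWT/OP9 and was not called. Its mean per length was the highest of the family in all 4 groups. In IkWT/OP9 its libraries (661 to 1276) overlapped those of Slc30a1 (476 to 695). The length used for Slc30a9 was 5711 bases, whereas all its annotated exons cover 12374 bases, so its place depends on the length chosen. The summed level of the family was 2176, 2705 and 2914 per kilobase (lowest, median and highest) in IkNull/OP9 and 1716, 1851 and 2634 in IkWT/OP9 libraries, and these overlapped.

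Of the 14 Slc39 genes 12 were tested, and none was called higher. On OP9-DL1 2 were called lower in IkNull (Slc39a3 and Slc39a8), and on OP9 1 was (Slc39a3), where 4.65% of all genes on OP9-DL1 and 2.83% on OP9 were called lower. Slc39a3, an importer of the plasma membrane, was called lower on both, by -0.85 ± 0.21 on OP9-DL1 (171 in IkNull/OP9-DL1 and 306 normalized counts in IkWT/OP9-DL1, limma adjusted p = 0.0202) and -0.86 ± 0.21 on OP9 (168 in IkNull/OP9 and 303 in IkWT/OP9, limma adjusted p = 0.0248). On each stroma the Slc39a3 call was lost in 11 of 30 other settings, 4 of which left out 1 library (replicate 2 or 3 of IkNull, or replicate 1 or 4 of IkWT on that stroma), and the differences without 1 library were -1.02 to -0.73 on OP9-DL1 and -0.94 to -0.72 on OP9. Slc39a1, also an importer of the plasma membrane, had a difference of 1.11 ± 0.36 on OP9 that did not pass the test (limma adjusted p = 0.0712). The median difference over the 12 genes was 0.14 on OP9 and 0.31 on OP9-DL1. The summed level of the family was 843, 877 and 1015 per kilobase in IkNull/OP9-DL1 and 1062, 1187 and 1223 in IkWT/OP9-DL1 libraries, which did not overlap. On OP9 the sums overlapped, at 910, 986 and 1089 in IkNull/OP9 and 1018, 1124 and 1172 in IkWT/OP9 libraries. The largest part of that sum was Slc39a8, which averaged 381 per kilobase in IkNull/OP9-DL1 and 724 in IkWT/OP9-DL1.

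**Figure D5:**
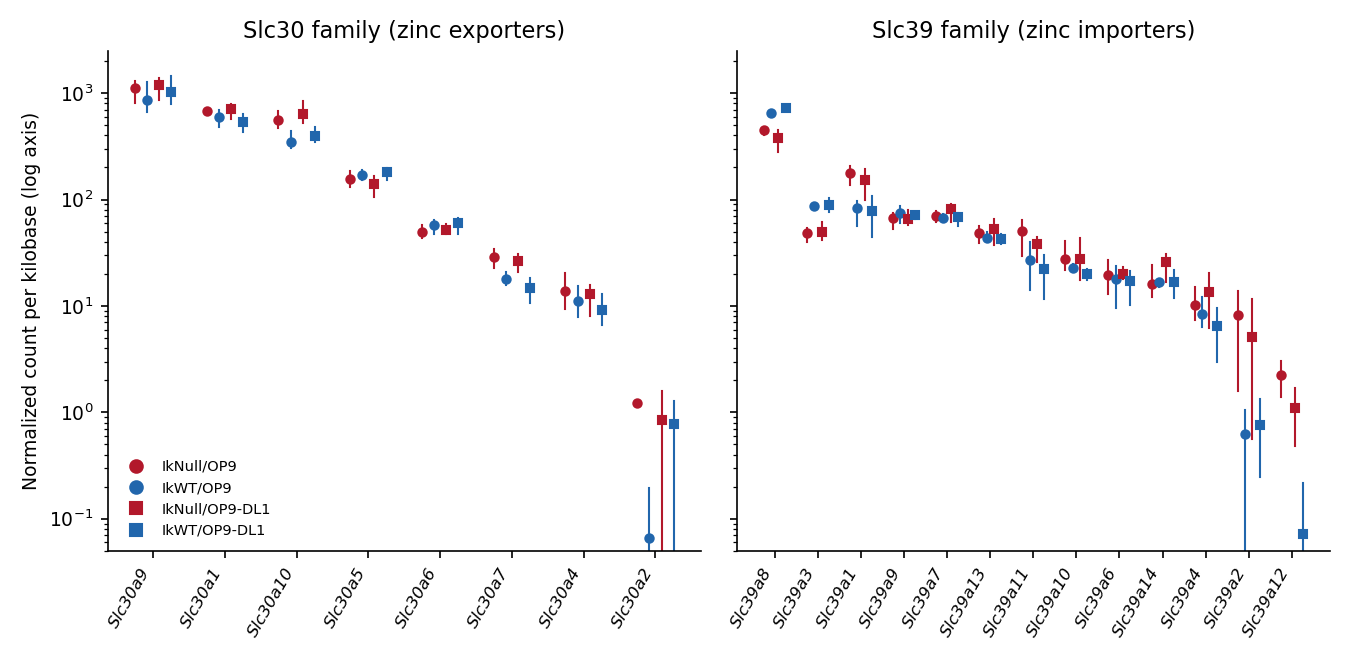
Mean normalized count per kilobase of the principal transcript (points, log axis) with the range of 3 libraries (lines) for the Slc30 and Slc39 genes that reach 1 per kilobase in any group, with IkNull in red and IkWT in blue, and circles for OP9 and squares for OP9-DL1. Slc30a9, Slc30a1 and Slc30a10 lead the first family and Slc39a8 the second in all 4 groups, and lines or points that leave the axis at the bottom belong to genes with libraries near or at 0.

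Genes under related control were read from lists compiled with the earlier results known. Of 6 other genes described as targets of MTF1, 2 were called lower on OP9 and 1 on OP9-DL1, and 0 were called higher. Slc40a1, the iron exporter ferroportin, was called lower on OP9 at -0.997 ± 0.168 (676 in IkNull/OP9 and 1347 in IkWT/OP9, limma adjusted p = 0.00388), and it kept that call in all 30 other settings, while on OP9-DL1 it was not called at -0.53 ± 0.17 (limma adjusted p = 0.0511). Gclc, the catalytic subunit of glutamate-cysteine ligase in glutathione synthesis, was called lower on OP9 at -1.49 ± 0.38 (3216 in IkNull/OP9 and 9337 in IkWT/OP9, limma adjusted p = 0.0285) and on OP9-DL1 at -1.21 ± 0.38 (3572 in IkNull/OP9-DL1 and 8387 in IkWT/OP9-DL1, limma adjusted p = 0.0478). Its calls were lost in 10 and 14 of 30 other settings, 4 and 7 of which left out 1 library. The median difference of the 6 genes was -0.19 on OP9 and -0.20 on OP9-DL1, and the shares of all genes called are those given above.

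Of 11 genes of copper handling, those called on OP9 were 1 higher and none lower, and those called on OP9-DL1 were 2 higher and 1 lower. For this list and the other lists of this paragraph, the shares of all genes on OP9 were 6.69% called higher and 2.83% lower. On OP9-DL1 those shares were 9.41% and 4.65%. Slc31a1, the copper importer CTR1, was called higher on OP9 at 2.26 ± 0.54 (5222 in IkNull/OP9 and 925.5 normalized counts in IkWT/OP9, limma adjusted p = 0.023) and on OP9-DL1 at 2.04 ± 0.54 (4746 in IkNull/OP9-DL1 and 972 in IkWT/OP9-DL1, limma adjusted p = 0.0278). On each stroma the Slc31a1 call was lost when 1 of 5 libraries was left out (IkNull replicate 1 or 2, or any IkWT replicate on that stroma), with differences of 1.83 to 2.87 on OP9 and 1.55 to 2.64 on OP9-DL1 without 1 library. Of 9 genes induced by glucocorticoids, which also raise metallothionein messages, 4 were called higher and 0 lower on each stroma. Those that kept the call in all 30 other settings on OP9-DL1 were Zfp36, which destabilizes messages (2.22 ± 0.39, limma adjusted p = 0.00384), the clock gene Per1 (1.799 ± 0.306, limma adjusted p = 0.00326) and Ddit4, an inhibitor of mTORC1 (1.15 ± 0.18, limma adjusted p = 0.00195). The call of the kinase gene Sgk1 on OP9-DL1 was lost in 12 of 30 other settings. On OP9 the calls were lost in 9 settings for Zfp36, 9 for Per1, 8 for Tsc22d3, which encodes the glucocorticoid-induced leucine zipper, and 1 for Ddit4. Leaving out 1 library ended the OP9 calls of Zfp36 and Per1 (IkNull replicate 2 or 3, or IkWT replicate 3 or 4) and of Tsc22d3 (IkNull replicate 2 or IkWT replicate 4), and the OP9-DL1 call of Sgk1 (IkNull replicate 2 or 3, or IkWT replicate 1 or 4). Of 8 genes induced by NRF2, which include Gclc, Gclc was the only one called on OP9, and on OP9-DL1 the heme oxygenase gene Hmox1 was also called, at 1.22 ± 0.30 (limma adjusted p = 0.0196). The Hmox1 call was lost in 10 of 30 other settings, among them those without IkNull/OP9-DL1 replicate 2 and without IkWT/OP9-DL1 replicate 1 or 3.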

How the data were processed

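Poly(A) RNA from 12 samples was sequenced by the authors on a HiSeq2000 after TruSeq RNA library preparation, aligned without trimming by TopHat (build GRCm38/mm10) and assigned to genes by htseq-count. Tools named in the submitters' processing notes are DESeq2 1.0.19, HTSeq 0.5.3, TopHat2 2.0.9 and CASAVA 1.8. The sources used here do not give the strand setting or the annotation release of the counting. The deposited signal values are gene counts after division by the authors' size factor for that library, called normalized counts here. Per-comparison tables of the authors' fold changes, p-values and group means were not used.

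All values in each library were whole multiples of 1 step within a tolerance of 0.001, which gave 19889576 to 31624477 recovered reads per library. The steps of IkNull replicate 3 lie close to 1, so its 2 libraries were also left out of 1 count test. PCR reads carry no molecular identifiers.

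The main test was limma 3.58.1 (R 4.3.3, eBayes with a trend in the mean), run on log2(normalized count + 1), with 4 group means over all 12 libraries, for 13769 genes that averaged 5 or more normalized counts. A fold change on this scale understates the change of low genes. A call required a p under 0.05 after Benjamini-Hochberg adjustment over all genes together with a difference of 0.8 or more in size on the log2 scale, and for the interaction the adjusted p alone. The fits were tested on simulated data with independent libraries, which cannot check the effect of libraries that share a culture. Members and lists were chosen with earlier results of these data known. Besides the members, the genes named are up to 4 per list and comparison by adjusted p, the 5 genes most like Mt2 and Mt1, and Slc30a9 and single list members shown after their values were seen.

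Other settings were other pseudocounts and filters, TMM scaling, scaling to the same total, only the 2 groups compared, blocks, edgeR 4.0.16 and DESeq2 1.42.0 on recovered reads, and leaving out each library or culture. Within a genotype, deviations from the group means of libraries of the same replicate number correlated across genes at 0.583 to 0.834 (6 pairs), against -0.702 to 0.199 for other numbers, so a number was read as 1 culture and the stroma comparisons were also fitted with the culture as a block. Across genotypes only numbers 1 and 3 are shared, and these were not treated as paired. Samples are stated to be biological triplicates, and p-values measure the spread between them. The main test counted all 12 libraries as independent, although the 2 libraries read as 1 culture correlated. Its genotype p-values may therefore be too small. Comparing only the 2 groups, with each culture used once, called 786 genes higher and 306 lower on OP9-DL1, against 1295 and 640. With the culture as a random block those counts were 1337 and 647. Positions and transcript lengths came from GENCODE vM21 and promoter windows from RefSeq (GRCm38.p6).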

Additional observations from a re-analysis of the deposited data

Results flagged for a closer look

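Slc39a8 was singled out because its difference between the stromas ran in opposite directions in the 2 genotypes, being below 0 on OP9-DL1 in 3 of 3 IkNull cultures and above 0 in 3 of 3 IkWT cultures. The difference of these differences was -0.41 ± 0.25 on the log2 scale and did not pass the limma test of the interaction (adjusted p = 1 over all genes), nor did it with the culture as a block (-0.41 ± 0.11, limma adjusted p = 0.262). Over the other settings it was -0.55 to -0.21. The share of all genes with such a split of signs between the genotypes was not counted.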

How the results depend on the processing

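The genotype difference of Mt2 stayed between -3.19 and -2.53 on OP9 and between -3.24 and -2.55 on OP9-DL1 over 30 other settings. Members called on OP9 (1 of 7) became 2, with Mtf1, under the same total, under edgeR with 10 libraries (chosen after seeing the data) and without culture IkNull1, and ranged from 1 to 2 without 1 library. Members called on OP9-DL1 (3 of 7) became 1 without culture IkNull2, 2 without culture IkWT4 (Slc39a8 lost) and, without culture IkWT1, 2 lower and 1 higher (Mtf1 lost, Slc30a10 gained), and ranged from 1 to 3 without 1 library. Across genotypes libraries of the same replicate number correlated at 0.205 to 0.477 (8 pairs of libraries from the 2 shared numbers), against -0.43 to 0.237 for other numbers, a hint from the data and not from the labels, which do not say what a shared number marks. With the replicate number as a fixed block Slc39a8 was -0.78 on OP9-DL1 and not called, and over all genes 1778 were higher and 597 lower on OP9, against 921 and 389 without it. In the stroma comparisons 0 members were called with or without the block, which changed no other call of a member.

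Slc30 and Slc39 genes called on OP9 (1 of 19) became 2 with no filter, with only the 2 groups compared and with either replicate block, 4 with DESeq2 and without culture IkNull1, and 0 under edgeR with 10 libraries and without each of the other 5 cultures, with 0 to 3 without 1 library. On OP9-DL1 (3 of 19) they became 1 with only the 2 groups compared, under edgeR with 10 libraries and without culture IkNull3, 5 without culture IkNull1, and 0 without culture IkNull2 or IkWT4, with 0 to 4 without 1 library. The cause of these changes was not tested.

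Over all genes, calls under the same total were 574 higher and 862 lower on OP9, against 921 and 389, and 715 higher and 1591 lower on OP9-DL1, against 1295 and 640. DESeq2 called 1525 higher and 578 lower on OP9, and edgeR with 10 libraries 551 and 234. On OP9-DL1, only the 2 groups compared gave 786 and 306, the fixed block 2140 and 737, and edgeR with 10 libraries 792 and 428. Slc39a4, with 8.2 to 55.9 normalized counts, had the fewest counts of the 8 genes.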
